A study of Drosophila melanogaster with 15 samples.

Results

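The nuclear transcriptome of fly photoreceptors was compared between day 40 and day 20 after eclosion, the emergence of the adult from the pupal case. The comparison used 6 of the 15 libraries of the series, 3 from day 40 flies and 3 from day 20 flies, and tested 9928 of 17558 genes. A gene was tested when it had more than 1 CPM (counts scaled to a common total of gene counts) in at least 3 of the 6 libraries. All flies of both ages were male *Drosophila melanogaster* of one genotype, *Rh1-Gal4 > KASH-GFP*. They carried *UAS-GFP-Msp300KASH* at attP2, which places a fluorescent protein on the nuclear envelope, under *rh1-GAL4*, and were kept in light:dark cycles at 25 °C. The driver uses the promoter of the main rhodopsin gene and marks the outer photoreceptors R1 to R6, but it is also active in some mechanosensory neurons of the antenna. Each library came from a pool of flies, so the spread between libraries is that between pools. No treatment or mutation separated the groups, and only age differed by design.

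Outer photoreceptors capture light with rhodopsin in a stack of microvilli, amplify the signal through a G protein and phospholipase C, and open TRP channels. They release histamine onto neurons of the lamina. As neurons that do not divide, they have to maintain their genome, their proteins and their daily clock for the whole life of the fly.

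The day 40 libraries held 10169378 to 18515000 gene counts and the day 20 libraries 10719618 to 13930106. A level of 3 counts, the most that a count of 0 allows, equals 0.162 to 0.295 CPM in the day 40 libraries and 0.215 to 0.280 CPM in the day 20 libraries, counting error only. Day 40 replicate 3 stood apart from the other day 40 libraries in the clock genes described below, and the main results are given with and without it. Of the genes, 6.74% lay over 1 log2 unit from the mean of the other libraries of their age in day 40 replicate 3, against 4.05% and 4.22% in the other day 40 libraries. The share was 6.90%, 6.59% and 4.46% in day 20 replicates 1, 2 and 3, so this measure does not set that library apart from the day 20 libraries. Markers of the outer photoreceptors were abundant at both ages, with summed levels of 87069 to 128360 CPM for 7 genes at day 40 and 73513 to 88920 CPM at day 20.

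Between day 40 and day 20, 139 genes passed the threshold of the edgeR quasi-likelihood test (adjusted p under 0.05), which was 1.40% of the 9928 genes tested.  This number rests on a spread estimated over 14 libraries, and with the 6 libraries alone it was 45. The rest of this paragraph uses the fit over 14 libraries. Of the 139 genes, 93 were higher at day 40 (0.937% of the genes tested) and 46 were lower (0.463%). The median log2 change was 1.07 among the 93 genes and -1.49 among the 46, against 0.01 over all genes tested. Over all genes tested, 5105 had a fitted change above 0 and 4823 below 0, the background for the counts by sign given below. Without day 40 replicate 3, 53 genes passed (0.534%), 35 higher (0.353%) and 18 lower (0.181%), and 50 of them were among the 139. All 139 genes kept the sign of their change without that library. The count was 55 without day 20 replicate 2, 52 without day 20 replicate 3 and 221 without day 20 replicate 1. In each of the 6 fits that left out a library of these ages, 35 of the 139 genes passed, 24 higher and 11 lower. The groups did not overlap for any of the 139 genes, as was so for 19.7% of all genes tested (10.9% all above and 8.85% all below). With DESeq2 the split of the calls was 206 higher and 164 lower. In bulk nuclear RNA, fewer nuclei of a type and less RNA per nucleus cannot be told apart.

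**Figure D1:**
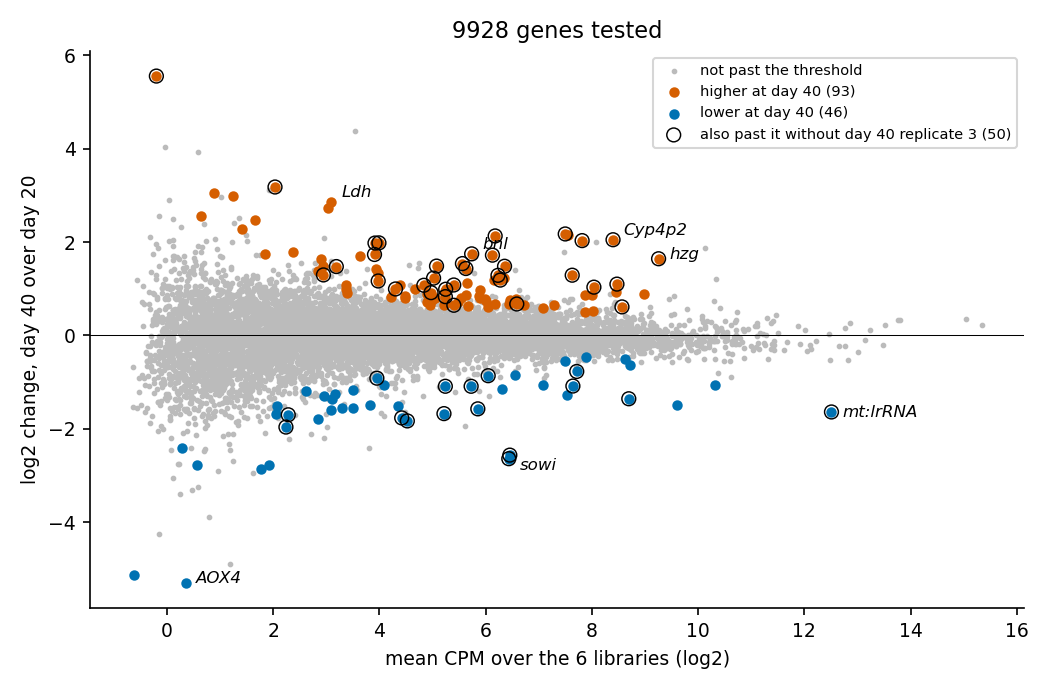
Log2 change of each tested gene (vertical axis, day 40 over day 20) against its mean level over the 6 libraries (horizontal axis, log2 CPM). The 93 genes higher at day 40 are orange, the 46 lower genes are blue, and the 50 circled genes also passed without day 40 replicate 3. The lower genes included *mt:lrRNA*, which sits far to the right.

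Among the genes with the largest rises were 3 neighbors that encode cytochrome P450 enzymes, a family that oxidizes lipids and foreign compounds. *Cyp4p2* (chromosome 2R, 9237512 to 9239831, in the BDGP6.54 annotation) had 457, 409.8 and 764 CPM in the day 40 libraries, against 88.6, 146 and 159.9 CPM in the day 20 libraries. *Cyp4p1* (2R, 9240041 to 9242139) had 233, 203 and 453 CPM at day 40 and 55.9, 63.5 and 77.7 CPM at day 20. *Cyp4p3* (2R, 9242320 to 9244410) was lower in level, at 17.7, 21.5 and 33.0 CPM at day 40 and 5.78, 5.15 and 7.39 CPM at day 20. The lowest day 40 library of each gene was above its highest day 20 library, and day 40 replicate 3 was the highest library for all 3. The log2 changes were 2.05 for *Cyp4p2* (SE 0.26, adjusted p = 0.000516), 2.17 for *Cyp4p1* (SE 0.26, adjusted p = 0.000315) and 1.98 for *Cyp4p3* (SE 0.26, adjusted p = 0.000626). Without day 40 replicate 3 the changes were 1.72, 1.73 and 1.68 in the same order, and each gene still passed. No other of the 70 tested P450 genes in the family list passed, and the median of the list was -0.21.

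*Arc1*, which encodes a Gag-like protein that forms capsids and is induced by neuronal activity, rose with a log2 change of 2.03 (SE 0.21, adjusted p = 0.000125). It had 289, 319.6 and 478 CPM at day 40, against 112, 81.9 and 72.3 CPM at day 20. Its paralog *Arc2* had 7.50, 8.28 and 11.8 CPM at day 40 and 4.97, 2.62 and 3.30 CPM at day 20, and did not pass (adjusted p = 0.152). Of the 12 tested activity-regulated genes, *Arc1* was the one that passed, and the median of the list was 0.20.

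*bnl*, the fibroblast growth factor that guides the branching of the tracheal air tubes, had the smallest adjusted p of all genes tested (2.98e-05). It had 79.1, 78.7 and 88.6 CPM at day 40, against 24.9, 23.2 and 25.3 CPM at day 20. The libraries of each age differed little from each other, and the log2 change was 1.75 (SE 0.16). *ple*, the tyrosine hydroxylase of dopamine synthesis, had 69.0, 77.3 and 175 CPM at day 40 and 38.7, 34.4 and 24.9 CPM at day 20. Its log2 change of 1.72 (SE 0.30, adjusted p = 0.0079) was 1.16 without day 40 replicate 3 (adjusted p = 0.03), the library in which it was highest, and the adjusted p was 0.0578 without day 20 replicate 3.

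*hzg* was the most abundant of the 12 genes named for their rise, at 842, 775 and 1162 CPM at day 40 and 258, 309.9 and 322 CPM at day 20. *Gnmt*, a methyltransferase that consumes S-adenosylmethionine, had 25.5, 30.1 and 20.5 CPM at day 40 and 8.04, 7.96 and 3.30 CPM at day 20 (log2 change 1.98, SE 0.41, adjusted p = 0.0233). It was lowest at day 40 in replicate 3, unlike the P450 genes, and it passed in 3 of the 6 fits that left out a library (highest adjusted p 0.104). *CG15784*, whose role is not given here, had 71.7, 89.7 and 192 CPM at day 40 and 31.9, 19.0 and 29.9 CPM at day 20. Its log2 change of 2.13 was 1.58 without day 40 replicate 3. The other genes named for their rise were *Mp20*, a calponin-family muscle protein (log2 change 1.73), the mucin *Muc14A* (1.54) and *CG10126* (1.48), all with groups that did not overlap.

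**Figure D2:**
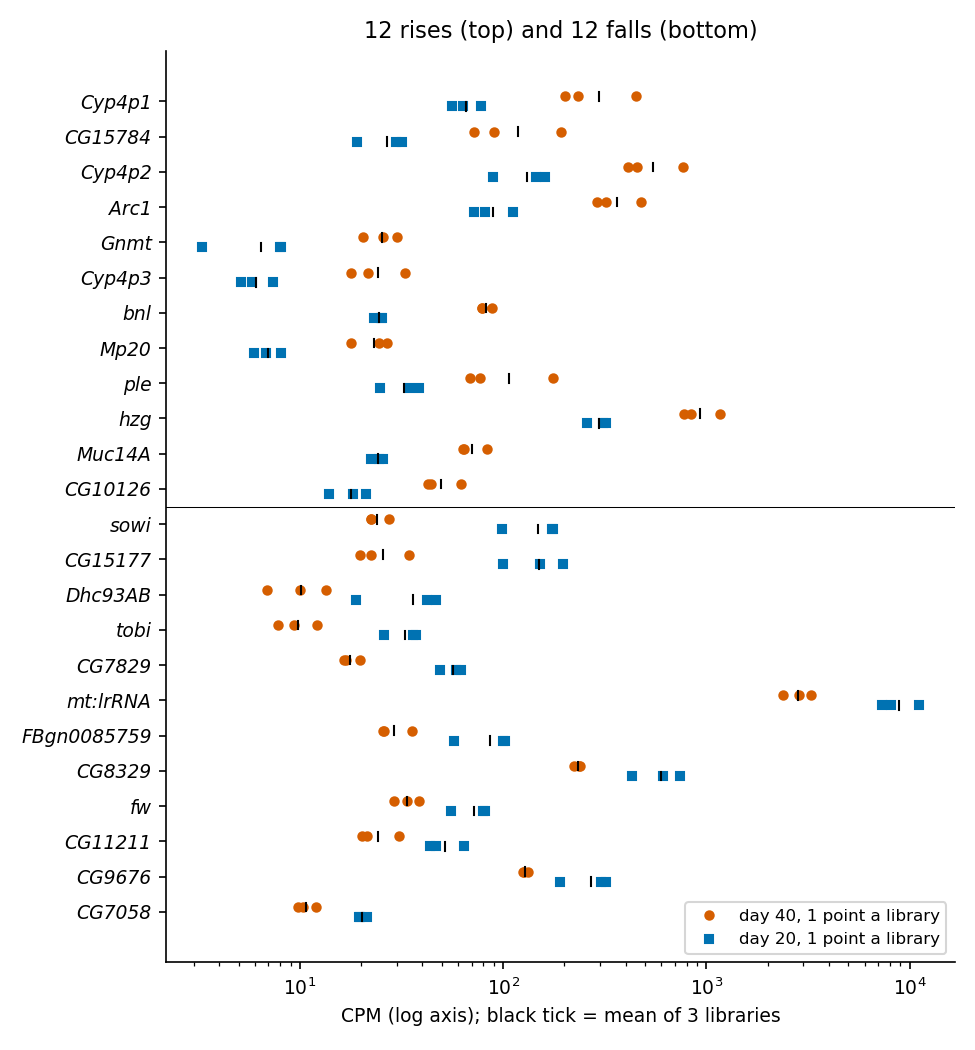
Level of each named gene in CPM (horizontal log axis) in the day 40 libraries (orange circles) and the day 20 libraries (blue squares), with a black tick at the mean of 3 libraries. The 12 rises are above the line and the 12 falls below it, and for none of them do the 2 ages overlap. The *bnl* libraries lie closest together within each age among the rises.

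Among the genes that fell were 3 adjacent genes on chromosome 3R, a group that was picked because earlier results of these data were known. *sowi* (3R, 6626930 to 6627900) had 27.3, 22.3 and 22.3 CPM at day 40, against 173, 175 and 99.1 CPM at day 20. *CG15177* (3R, 6628204 to 6629321) had 34.3, 22.4 and 19.8 CPM at day 40 and 198, 153 and 99.5 CPM at day 20. The third gene, *sunz* (3R, 6630151 to 6631184), lies on the other strand and had 459, 314 and 456 CPM at day 40 and 1475, 1145 and 808 CPM at day 20. Day 20 replicate 3 was the lowest of its age for each of them and was still above every day 40 library. The log2 changes were -2.64 for *sowi* (SE 0.39, adjusted p = 0.00215), -2.56 for *CG15177* (SE 0.41, adjusted p = 0.00387) and -1.48 for *sunz* (SE 0.31, adjusted p = 0.0253). Without day 40 replicate 3 the first 2 still passed, and *sunz* had an adjusted p of 0.0779. *sunz* passed in 2 of the 6 fits that left out a library.

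The fall of *sowi* and *CG15177* was not spread evenly over the ages. The mean of *CG15177* was 228 CPM for day 10, 109 CPM for day 25 and 146 CPM for day 30, and that of *sowi* was 108 CPM for day 25 and 153 CPM for day 30, so the low level of both genes was seen in the day 40 libraries. For *sunz* the mean was 871 CPM in day 25 libraries and 584 CPM in day 30 libraries, both between its means of day 20 and day 40.

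The mitochondrial ribosomal RNAs were also lower at day 40. *mt:lrRNA*, the large subunit RNA (mitochondrial genome, 12735 to 14058), had 3268, 2867 and 2377 CPM at day 40 and 7345, 8059.9 and 11113 CPM at day 20 (log2 change -1.64, SE 0.21, adjusted p = 0.000626). *mt:srRNA*, the small subunit RNA, had 904, 923 and 660.3 CPM at day 40 and 1671, 1573 and 1952 CPM at day 20 (log2 change -1.06, SE 0.21, adjusted p = 0.0187). No day 40 library reached a day 20 library for either RNA. *mt:lrRNA* passed whichever library was left out, while *mt:srRNA* had an adjusted p of 0.0923 without day 40 replicate 3 and passed in 4 of 6 such fits. No other of the 16 mitochondrially encoded genes tested passed, and the median change of the 16 was -0.02. All mitochondrial genes together took 0.943%, 1.00% and 0.856% of the gene counts at day 40, against 1.55%, 1.41% and 1.91% at day 20. This difference gave p = 0.1 in the exact permutation test (two-sided), which is the smallest p that 3 against 3 libraries can give. The means differed by -0.694 percentage points, and *mt:lrRNA* alone differed by -0.601. The test of the sum therefore largely repeats the fall of that RNA. The paper reported that most mitochondrially encoded genes it detected were reduced by the enrichment of nuclei. The nuclear genes of the respiratory chain (68 tested) and of the mitochondrial ribosome (67 tested) had no gene past the threshold, and their medians were 0.10 and 0.14.

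*Dhc93AB*, a dynein heavy chain of cilia, had 10.0, 13.5 and 6.88 CPM at day 40 and 46.5, 42.3 and 18.9 CPM at day 20 (log2 change -1.83, SE 0.32, adjusted p = 0.00737). Its means were 9.63 CPM in day 10, 18.5 CPM in day 25 and 9.45 CPM in day 30 libraries, so its level was highest in the day 20 libraries. *tobi*, an alpha-glucosidase that responds to insulin-producing cells, had 9.36, 12.1 and 7.79 CPM at day 40 and 37.3, 25.9 and 35.9 CPM at day 20. Its exons overlap those of *rha* on the other strand, and pairs were counted by strand. *fw*, a selectin-like adhesion protein, had 29.1, 33.6 and 38.6 CPM at day 40 and 55.4, 81.5 and 79.4 CPM at day 20 (log2 change -1.09). *CG7829* fell as well, at 16.9, 19.8 and 16.5 CPM at day 40 and 48.8, 62.4 and 58.6 CPM at day 20 (log2 change -1.67, SE 0.18, adjusted p = 0.000125). The other genes named for their fall were *CG8329* (-1.36), *CG11211* (-1.09), *CG9676* (-1.08), *CG7058* (-0.92) and the gene FBgn0085759 (-1.57), which had no name in the annotation used. *CG11211* passed in 3 and *CG7058* in 2 of the 6 fits that left out a library.

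The circadian clock of *Drosophila* runs on a feedback loop in which Clk and cyc activate *per* and *tim*, whose proteins then block them. The factors vri, Pdp1 and cwo form further loops, and cry is the light receptor that resets the clock. *per* (chromosome X, 2685580 to 2692780) had 102, 127 and 689.9 CPM at day 40, against 85.5, 59.2 and 62.7 CPM at day 20. It was the one of 8 clock genes past the threshold (log2 change 2.15, SE 0.48, adjusted p = 0.0365). Without day 40 replicate 3 the change was 0.73 with an adjusted p of 0.0962, and no clock gene passed. Without day 40 replicate 1 or replicate 2, 5 and 4 of the 8 passed.

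*tim* had 609.7, 573 and 4134 CPM at day 40 and 621, 340.3 and 487 CPM at day 20 (adjusted p = 0.0865). *vri* had 139, 144 and 1009 CPM at day 40 and 164, 75.2 and 85.5 CPM at day 20 (adjusted p = 0.0791). *Clk* ran the other way, with 391, 328 and 94.9 CPM at day 40 and 305, 394 and 423 CPM at day 20. In each of these genes the difference lay in day 40 replicate 3. *Pdp1* was at 3547 CPM in that library and at 672 to 1006 CPM in the other 13 libraries of all ages. *cwo* was at 298 CPM in that library and at 36.2 to 69.0 CPM in the other 13. *cyc*, with 30.8, 29.5 and 22.4 CPM at day 40 and 27.1, 30.2 and 36.5 CPM at day 20, and *cry*, with 67.2, 62.2 and 55.7 CPM at day 40 and 78.7, 66.1 and 59.4 CPM at day 20, had groups that overlapped. The median log2 change of the 8 genes was 1.30 with day 40 replicate 3 and 0.17 without it. The paper states that flies for sequencing were harvested in the same late-morning window at each time point. Whether the hour of harvest differed for that library was not tested.

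**Figure D3:**
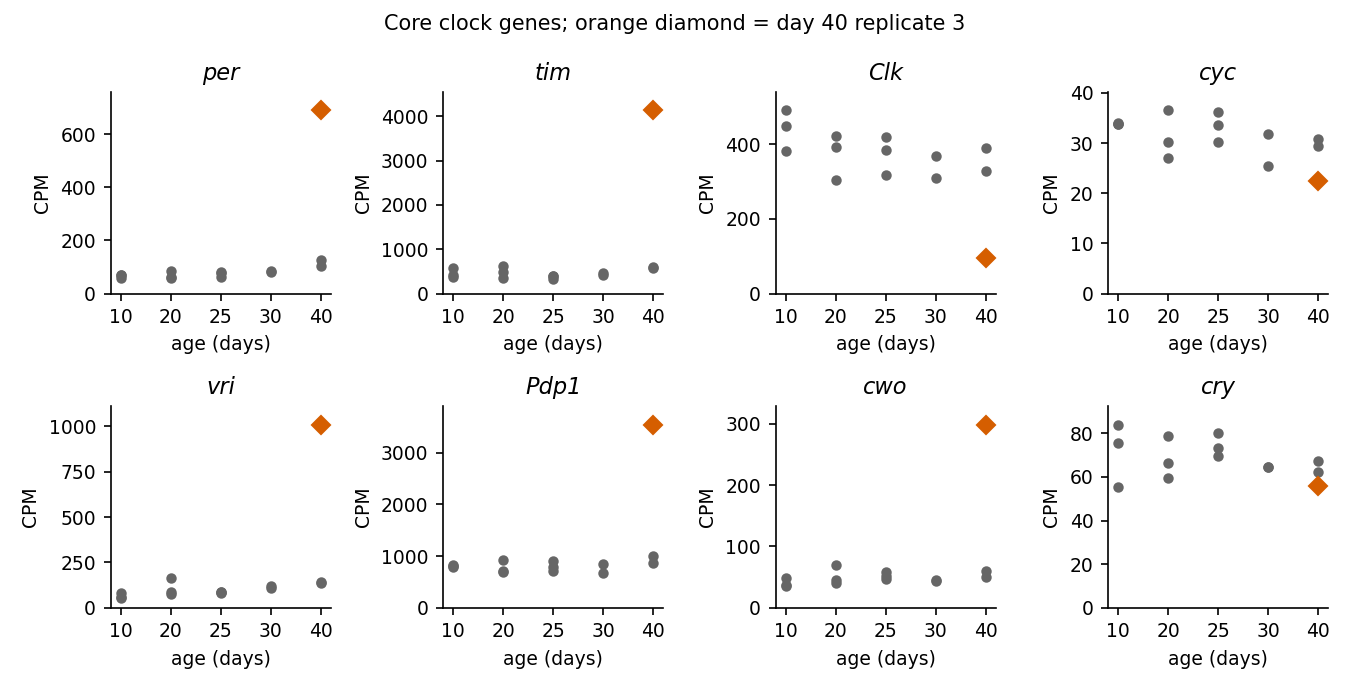
Level of 8 core clock genes in CPM (vertical axis, each panel with its own scale from 0) in every library, by age in days. The orange diamond is day 40 replicate 3, which was above all other libraries for *per*, *tim*, *vri*, *Pdp1* and *cwo* and below all others for *Clk* and *cyc*.

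Genes of phototransduction had no member past the threshold. All 23 were tested, with a median log2 change of 0.11 and a range of -0.32 to 0.43. The median was -0.04 without day 40 replicate 3, with 11 genes above 0 and 12 below. *ninaE*, which encodes the main rhodopsin, had 30398, 32167 and 51359 CPM at day 40, against 35745, 28205 and 25330.0 CPM at day 20. *trp*, the channel that carries most of the light response, had 14503, 15394 and 16570.0 CPM at day 40 and 12058, 13640.0 and 11463 CPM at day 20, groups that did not overlap although the gene did not pass (adjusted p = 0.436). *Cpn*, a calcium buffer of photoreceptors, had 383, 395 and 398 CPM at day 40 and 270.1, 294 and 307 CPM at day 20 (adjusted p = 0.14). *ninaE* overlapped between the ages and was highest in day 40 replicate 3.

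Among 19 genes for ion channels, gap junctions and pumps, *shakB* fell. This gene encodes an innexin of electrical synapses (chromosome X, 20761071 to 20927050) and had 126, 157 and 182 CPM at day 40 and 279, 237 and 279.7 CPM at day 20. The log2 change was -0.77 (SE 0.15, adjusted p = 0.0183), and -0.91 without day 40 replicate 3 (adjusted p = 0.0141). It passed in 4 of the 6 fits that left out a library (highest adjusted p 0.0652). The fitted change was below 0 for 16 of the 19 genes, with a median of -0.22. Of the 24 genes of histamine handling and the synaptic vesicle cycle, none passed, 20 had a fitted change below 0 and the median was -0.19. With the ratio of pairs on no annotated feature as a covariate, the median of this list was 0.09 with 16 genes above 0, and that of the channel list was -0.05 with 10 of 19 below 0.

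The immunoglobulin-domain proteins of the dpr, DIP and beat families match partner neurons at synapses. *dpr11* (chromosome 3R, 6529169 to 6593330) rose, with 292, 238 and 314 CPM at day 40 and 114, 107 and 124 CPM at day 20 (log2 change 1.29, SE 0.15, adjusted p = 0.000253). Every day 40 library was above every day 20 library, and the gene passed without day 40 replicate 3 as well. The other members were on the opposite side, with a fitted change below 0 for 43 of the 45 genes tested, a median of -0.34 and none of the 43 past the threshold. *beat-Ia* had 4.97, 7.43 and 5.08 CPM at day 40 and 14.2, 10.9 and 10.7 CPM at day 20 (adjusted p = 0.058). *dpr19* had 21.6, 21.9 and 19.0 CPM at day 40 and 32.7, 28.9 and 32.2 CPM at day 20 (adjusted p = 0.0538). The median of the list was -0.54 to -0.17 when each library was left out in turn. With the ratio of pairs on no annotated feature as a covariate it was -0.86, and 6 of the 45 genes passed.

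Some markers of other neurons had lower values at day 40, beside these adhesion genes. *Gad1*, which makes the transmitter GABA, had 46.3, 68.7 and 47.1 CPM at day 40 and 116, 84.7 and 97.8 CPM at day 20 (adjusted p = 0.058). *VGAT*, the vesicular GABA transporter, had 15.7, 21.3 and 15.4 CPM at day 40 and 36.1, 30.0 and 29.9 CPM at day 20 (adjusted p = 0.0538). Neither passed, although the groups did not overlap, and *ple*, which rose, is on the same list. The 6 markers of other neurons summed to 653 to 839 CPM at day 40 and 818 to 1029 CPM at day 20 (exact permutation p = 0.2, two-sided). Their part in the levels of the adhesion genes was not tested.

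Genes of DNA repair had 3 of 22 members past the threshold, all higher at day 40, where 0.937% of all genes tested were called higher. *PolZ1*, the catalytic subunit of the translesion polymerase zeta, had 48.4, 57.6 and 65.8 CPM at day 40, against 26.1, 27.2 and 28.1 CPM at day 20 (log2 change 1.08, SE 0.16, adjusted p = 0.0027). *rad50*, part of the complex that holds broken DNA ends, had 51.4, 55.5 and 47.8 CPM at day 40 and 31.2, 35.5 and 32.2 CPM at day 20 (log2 change 0.65, SE 0.13, adjusted p = 0.021). *Xrp1*, a transcription factor induced by DNA damage, had 567, 609.6 and 798 CPM at day 40 and 429, 377 and 266 CPM at day 20 (log2 change 0.88, SE 0.18, adjusted p = 0.0231). Day 40 libraries were above day 20 libraries throughout in 13 of the 22 genes, and in 10.9% of all genes tested. *Ku80*, which binds DNA ends, was close to the threshold (adjusted p = 0.0538), with 9.75, 11.8 and 19.4 CPM at day 40 and 7.97, 3.69 and 4.45 CPM at day 20. The median of the list was 0.34, and 0.32 without day 40 replicate 3, when *PolZ1* and *rad50* still passed and *Xrp1* had an adjusted p of 0.115. *PolZ1* passed whichever library was left out, *rad50* in 4 and *Xrp1* in 3 of 6 such fits. With the ratio of pairs on no annotated feature as a covariate the median was 0.47 and none of the 22 passed.

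Ribosomal protein genes were higher at day 40 by a small amount across nearly the whole list. The fitted change was above 0 for 78 of the 79 genes tested, with a median of 0.45 and a range of -0.07 to 0.76. The 3 that passed were *RpS26* (0.66), *RpS27A* (0.67) and *RpL40* (0.76), and *RpS27A* and *RpL40* encode ribosomal proteins fused to ubiquitin. At an unadjusted p under 0.05, 60 of the 79 were higher, where 15.0% of all genes tested passed that level in either direction. The 79 genes summed to 12433, 14111 and 13206 CPM at day 40 and 12196, 8655 and 8237 CPM at day 20. Day 20 replicate 1 was thus close to the day 40 libraries and far from the others of its age. Without that library 44 of the 79 passed and the median was 0.68, and without day 40 replicate 3 none passed and the median was 0.46. None passed without day 20 replicate 2 or 3 or day 40 replicate 2 either. With the ratio of pairs on no annotated feature as a covariate, the median was 0.14 and none passed.

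**Figure D4:**
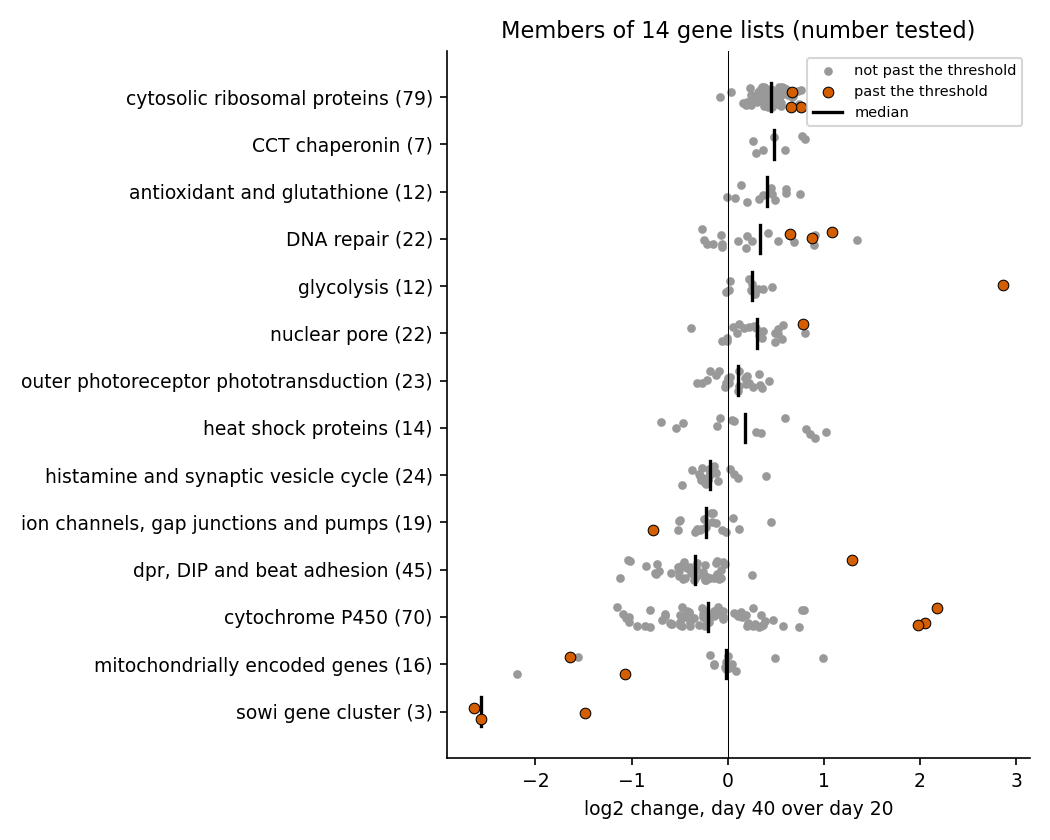
Log2 change (horizontal axis, day 40 over day 20) of each tested member of 14 gene lists, with the number tested in parentheses. Orange points passed the threshold, gray points did not, and the black line is the median. Ribosomal protein genes lie almost all to the right of 0 with 3 past the threshold, and the dpr, DIP and beat genes lie to the left of 0 apart from *dpr11* and 1 other.

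Protein folding genes gave few calls. *Xbp1*, the transcription factor of the unfolded protein response, had 263, 264 and 296 CPM at day 40 and 198, 206 and 181 CPM at day 20 (log2 change 0.49, SE 0.11, adjusted p = 0.0423). It was the one of 12 genes of that response past the threshold (median 0.20, and 0.08 without day 40 replicate 3), and it did not pass when any of the 6 libraries was left out (adjusted p 0.0539 to 0.175). None of 14 tested heat shock proteins passed, and their median was 0.18 with day 40 replicate 3 and -0.0025 without it. All 7 subunits of the CCT chaperonin, which folds actin and tubulin, had a fitted change above 0 (median 0.49) and none passed. None of 34 proteasome genes passed (median 0.24).

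In metabolism, *Ldh*, which makes lactate from pyruvate, rose with a log2 change of 2.87 (SE 0.58, adjusted p = 0.0218). It had 13.7, 13 and 18.5 CPM at day 40 and 2.12, 0 and 3.88 CPM at day 20. The other 11 glycolysis genes did not pass, and without day 40 replicate 3 *Ldh* had an adjusted p of 0.0906. *Cbs*, the first enzyme from homocysteine to cysteine, had 139, 99.6 and 80.7 CPM at day 40 and 37.5, 64.3 and 29.5 CPM at day 20 (log2 change 1.29), and passed in 4 of the 6 fits that left out a library. *Inos*, which makes inositol phosphate, had 274, 310.4 and 475 CPM at day 40 and 169, 177 and 171 CPM at day 20 (log2 change 1.03). The antioxidant and glutathione list had 11 of 12 fitted changes above 0, a median of 0.41 and no gene past the threshold.

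Of the listed immune genes, 7 antimicrobial peptides and 16 genes of the Imd and Toll pathways gave no call. *Myd88*, an adaptor of the Toll receptor that was outside these lists, rose, with 50.8, 54.4 and 40.1 CPM at day 40, against 24.6, 27.4 and 29.6 CPM at day 20 (log2 change 0.83, SE 0.15, adjusted p = 0.00831). The groups did not overlap, and the adjusted p was 0.00758 without day 40 replicate 3. Other genes with immune roles outside these lists were also called higher at day 40. They were *BomBc1* (adjusted p = 0.031), *Tep3* (adjusted p = 0.0368) and *vir-1* (adjusted p = 0.0462). They passed in 2, 1 and 2 of the 6 fits that left out a library, in the same order.

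Markers of cells other than photoreceptors were mostly without calls. *Crys*, which encodes a protein of the lens, fell, with 9.84, 11.1 and 12.0 CPM at day 40 and 27.4, 19.4 and 21.8 CPM at day 20 (log2 change -1.06, adjusted p = 0.0233), but passed in 1 of the 6 fits that left out a library. The 4 markers of pigment and cone cells summed to 1024 to 1771 CPM at day 40 and 947 to 3301 CPM at day 20. The 8 markers of auditory neurons, where the driver is also active, summed to 48.4 to 73.5 CPM at day 40 and 37.4 to 47.7 CPM at day 20 (exact permutation p = 0.1, two-sided). *nompB* was the largest part of that sum in each day 40 library, with 43.5, 28.2 and 44.6 CPM at day 40 and 14.5, 7.77 and 20.3 CPM at day 20 (adjusted p = 0.06). Of the 5 markers tested, 3 had a fitted change above 0 and 2 below 0, with a range of -1.43 to 1.44. The day 40 libraries were all above the day 20 libraries in 1 of the 5 and all below in 2. The defining markers *ato*, *tilB* and *nan* were near 0 at both ages. The listed inner photoreceptor, outer photoreceptor, glia, muscle, fat body, blood and male germ line markers had no gene past the threshold. Outside the muscle list, the muscle gene *Mp20* named above and the muscle actin gene *Act57B* were called higher at day 40. *Act57B* (adjusted p = 0.0218) passed in 3 of the 6 fits that left out a library.

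Some genes known for expression in the antenna had lower values at day 40, and others did not. *Os-C*, an olfactory-specific gene, had 1.17, 0.512 and 0.790 CPM at day 40 and 10.3, 5.24 and 2.44 CPM at day 20 (adjusted p = 0.0452). *AOX4*, an aldehyde oxidase whose values followed the same course, had 0.195, 0 and 0 CPM at day 40 and 2.19, 3.40 and 1.87 CPM at day 20 (adjusted p = 0.0452). *AOX4* met the filter on level only through the day 20 libraries, the group in which it was higher, so its call is partly set by that filter. The odorant-binding proteins *Obp83a* and *Obp83b* did not pass. *Obp83a* had 0.390, 1.79 and 0 CPM at day 40 and 8.70, 6.12 and 1.51 CPM at day 20. *Obp83b* had 0.292, 0.342 and 0.677 CPM at day 40 and 5.27, 3.50 and 1.65 CPM at day 20. All 4 were higher at day 20 than at day 10 as well, where *Os-C* had 0.567, 1.16 and 1.02 CPM and *AOX4* had 0 in each library. The odorant-binding protein genes *lush* and *Obp28a* did not pass either, and their groups did not overlap. *lush* had 0.780, 0.598 and 0.790 CPM at day 40 and 2.71, 1.75 and 1.51 CPM at day 20. *Obp28a* had 0.390, 1.11 and 1.02 CPM at day 40 and 4.90, 2.43 and 1.22 CPM at day 20. *Orco*, the co-receptor of olfactory neurons, had 1.07, 5.21 and 0.959 CPM at day 40 and 4.90, 1.65 and 1.51 CPM at day 20, groups that overlapped. The 23 odorant-binding proteins tested had a median log2 change of 0.17, with 14 above 0 and 9 below. The part of antennal nuclei in the day 20 libraries was not tested, and the genes named here were picked after their values were seen. Without day 40 replicate 3, *Os-C* had an adjusted p of 0.173 and *AOX4* of 0.207, and each passed in 1 of the 6 fits that left out a library.

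The remaining lists had at most 1 gene past the threshold each, all of them higher at day 40. They were *AspRS* of 31 aminoacyl-tRNA synthetases (log2 change 0.83), *VhaM9.7-b* of 16 subunits of the proton pump V-ATPase (0.85), *Nup98-96* of 22 nuclear pore genes (0.79) and *Obp56e* of 23 odorant-binding proteins (1.42). None of these 4 passed without day 40 replicate 3. No gene passed among 10 genes of rhodopsin maturation (median 0.07, and -0.07 without day 40 replicate 3), 13 photoreceptor transcription factors (-0.10), 12 insulin and TOR genes (0.07), 7 dosage compensation genes (0.12) and 25 glutathione S-transferases (0.19). The same was so for 20 autophagy genes (-0.07), 26 Rab GTPases (-0.01), 42 small nucleolar RNAs (-0.09), 37 genes of Mediator and TFIID (-0.01) and 9 splicing and polyadenylation factors, whose median was 0.00. Over all 45 lists, 26 of 901 tested genes passed, beside 1.40% of all genes tested. *Dhc62B*, an axonemal dynein heavy chain outside the lists, was among the 5 called genes of at least 10 CPM that moved most without day 40 replicate 3, with 16.8, 17.6 and 33.2 CPM at day 40 and 10.5, 8.45 and 7.89 CPM at day 20. Its log2 change was 1.33 (adjusted p = 0.0349) with that library and 0.94 (adjusted p = 0.212) without it.

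Ages outside the comparison show the course of the called genes. Of the 93 genes higher at day 40, the mean at day 25 lay between those of day 20 and day 40 in 87, and the mean at day 30 did so in 90. Of the 46 genes lower at day 40, this held for 41 at day 25 and 27 at day 30. The genes were called for a gap between day 20 and day 40, so a mean inside that gap is in part fixed by the selection. The share over all genes tested was not counted, and these counts do not show a steady course. Day 30 against day 10 shares no library with the comparison. There the 93 genes had a median log2 change of 0.75, with 88 of them above 0. The 46 genes had a median of -0.08 there, with 24 below 0. Over all genes tested, 51.9% were above 0 between those ages, and the median was 0.02.

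**Figure D5:**
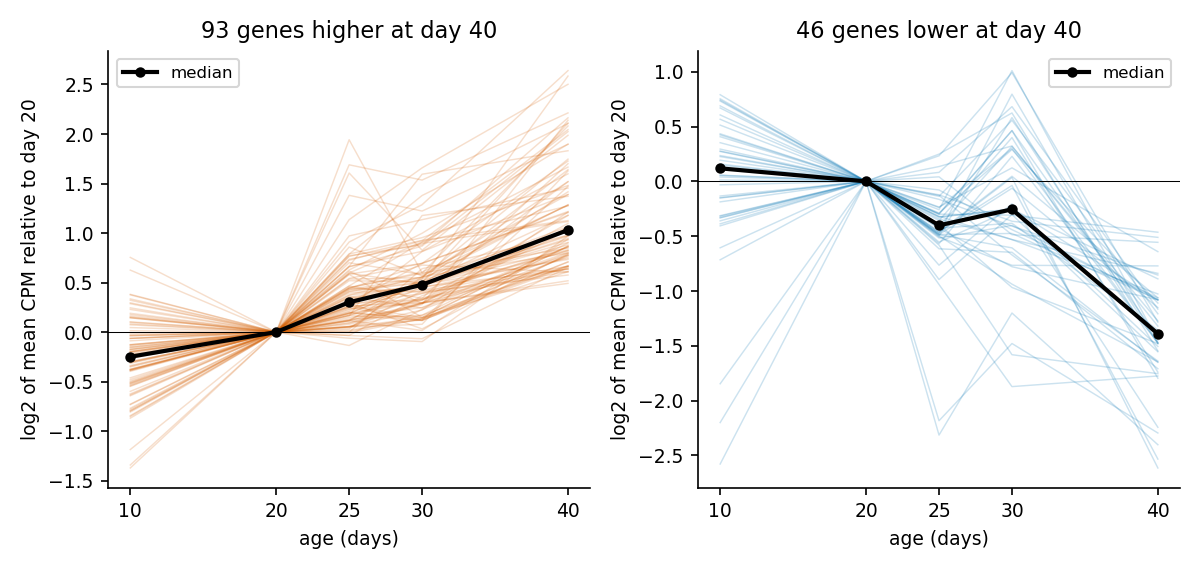
Mean level of each called gene at 5 ages relative to day 20 (vertical axis, log2 of the mean CPM plus 0.5), for the 93 genes higher at day 40 (left) and the 46 lower genes (right). The black line is the median. It stood at 0.30 at day 25, 0.48 at day 30 and 1.03 at day 40 on the left, and at -0.40, -0.26 and -1.39 at the same ages on the right.

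Several of the genes lower at day 40 were ribosomal RNA pseudogenes, which resemble the many copies of the nuclear ribosomal RNA genes. All 9 that were tested had a fitted change below 0, with a median of -1.15, and 3 passed. *28SrRNA-Psi:CR45851* had 133, 111 and 80.3 CPM at day 40 and 184, 392 and 209 CPM at day 20, and averaged 326 CPM at day 30. *28SrRNA-Psi:CR41609* had 15.8, 7.69 and 8.63 CPM at day 40 and 30.0, 31.8 and 28.8 CPM at day 20, and averaged 61.3 CPM at day 30. Pairs with several alignments were left out of the counts and the libraries were depleted of ribosomal sequence, so levels of such near-identical copies are uncertain. The group was picked after its values were seen, and its 3 called genes did not pass without day 40 replicate 3 (adjusted p 0.153 to 0.172).

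The amount of sequence outside annotated exons differed between the 2 ages too. Pairs on no annotated feature, which in nuclear RNA include introns, numbered 56.4, 52.5 and 42.4 per 100 gene counts at day 40 and 64.2, 84.6 and 81.4 at day 20 (exact permutation p = 0.1, two-sided). The ratio did not follow a steady course over the ages. It was 103, 100 and 60.7 at day 10, 67.6, 68.2 and 76.0 at day 25, and 112 and 112 at day 30. With this ratio as a covariate, 123 genes passed, 33 higher and 90 lower, and 32 of them were among the 139. The day 40 and day 20 libraries do not overlap in this ratio, so its part in the 139 changes cannot be told apart from that of age.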

How the data were processed

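The authors trimmed paired reads of nuclear RNA with Trimmomatic, aligned them to BDGP6 with TopHat and counted pairs over exons with HTSeq by strand, leaving out pairs with several alignments. They deposited raw counts per gene, which were used here. HTSeq's 5 summary lines were dropped. They were 77.6% to 84.1% of the column totals of the 6 libraries.

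Counts of 14 libraries (days 10, 20, 25, 30 and 40, without day 30 replicate 3, which the study discarded) were fitted with a mean for each age in edgeR 4.0.16 (R 4.3.3; glmQLFit and glmQLFTest, TMM scaling), with Benjamini-Hochberg adjustment over 9928 genes at 0.05. CPM values use TMM-scaled gene counts. Alternatives used DESeq2 1.42.0 and limma 3.58.1. The test was tested on simulated data. Columns and the replicates in sample titles are numbered from 1, but the sample descriptions number columns from 0. Columns numbered 1 and 2 therefore have an age from the labels but no sample of their own.

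Genes named for their change passed with and without day 40 replicate 3, had a mean of at least 10 CPM and groups that did not overlap (30 rises and 14 falls, of which the 12 largest each way were named). Listed genes are those with the smallest p of each list. Named beyond these rules, after their values were seen, were *Myd88*, *Cbs*, *Inos*, the antennal genes and the ribosomal RNA pseudogenes. The same holds for *BomBc1*, *Tep3*, *vir-1*, *Act57B*, *Phb1*, *Afg3l2*, *Nfs1*, *CG7194*, *MFS3*, *Rgk1* and *ppk13*. The members and the 45 gene lists were chosen with earlier results of these data known, and some lists hold genes the study named from these libraries. Of 337 symbols, 323 matched 1 gene. Names and positions came from Ensembl 115 (BDGP6.54, the authors' assembly with gene models that can differ), which matched 17252 of 17558 genes. Replicates are biological replicates per the study, and p-values measure the spread between them.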

Additional observations from a re-analysis of the deposited data

How the results depend on the processing

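The 139 calls depended on how the spread was estimated. With the 6 libraries of the 2 ages alone, 45 genes passed and 12 of the listed genes instead of 26, or 37 and 13 without day 40 replicate 3. DESeq2 called 370 genes (60 listed), the fit with no filter on low counts 236 (50 listed), and 86 of the calls (16 listed) had a log2 change of at least 1. Leaving out each replicate in turn gave 52 to 221 genes and 11 to 68 listed genes. DESeq2 size factors, library size alone, limma-voom, a minimum of 5 CPM and the authors' filtered gene set gave 111 to 158 genes. Deviations of same-numbered libraries from the mean of their age had correlations of -0.21, -0.05 and -0.07. With 3 libraries an age, these values cannot decide whether libraries were prepared in matched sets. With the replicate block, 85 genes passed in 14 libraries and 20 in 6, where 14 of the 26 named genes and 7 listed genes passed. With the ratio of pairs on no feature as a covariate, 16 named genes passed, and the changes of *Clk* (0.16) and *cry* (0.083), neither called, were reversed. These causes were not tested. Genes with few counts are limited by depth, since 3 counts are up to 0.295 CPM.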

Other observations

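Several genes called at day 40 encode proteins of mitochondrial upkeep. *Phb1*, a prohibitin, had 24.2, 22.9 and 24.1 CPM at day 40, against 13.2, 13.2 and 13.6 CPM at day 20 (log2 change 0.83, adjusted p = 0.0444). *Afg3l2*, a protease of the inner membrane, had 119, 116 and 120 CPM at day 40 and 79.0, 72.1 and 71.2 CPM at day 20 (log2 change 0.67, adjusted p = 0.0126). *Nfs1*, the sulfur donor of iron-sulfur clusters, had 27.2, 29.1 and 22.5 CPM at day 40 and 13.5, 15.1 and 11.0 CPM at day 20 (log2 change 0.99, adjusted p = 0.0149). *Afg3l2* and *Nfs1* also passed without day 40 replicate 3, and each passed in 4 of the 6 fits that left out a library, while *Phb1* passed in 0 (adjusted p 0.0702 to 0.159). These genes were picked after their values were seen, and the 68 respiratory chain genes had none past the threshold.

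Other called genes differed widely in level. *CG7194* had 1.95, 1.62 and 1.58 CPM at day 40 and 0, 0 and 0.0718 CPM at day 20, where the day 20 values are under the level of 3 counts. It met the filter on level only through the day 40 libraries, the group in which it was higher, so its call is partly set by that filter. *MFS3*, a transporter of the major facilitator family, had 9.55, 6.15 and 6.43 CPM at day 40 and 0.293, 1.07 and 1.08 CPM at day 20 (log2 change 3.18, adjusted p = 0.0079), and 0.922 CPM on average at day 25 and 1.41 at day 30. *Rgk1*, a small GTPase, had 106, 109 and 108 CPM at day 40 and 50.3, 46.2 and 45.4 CPM at day 20, with little spread at either age (log2 change 1.18, adjusted p = 0.00387). The ion channel gene *ppk13* had 4.87, 4.78 and 6.32 CPM at day 40 and 0.878, 1.46 and 0.574 CPM at day 20 (log2 change 2.47, adjusted p = 0.0308), but passed in 0 of the 6 fits that left out a library.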
